A study of Mus musculus with 17 samples.

Results

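Cryab and 8 myelin genes, Mal, Cnp, Mobp, Cldn11, Mbp, Mog, Mag and Ugt8a, were followed array by array in brain samples of Foxo1/3/4 knockout (KO) and wild-type (WT) mice. The members were taken by symbol: every probe set that the platform annotation gives one of these 9 symbols alone, which was 26 of the 45037 probe sets tested, beside 18193 genes with a symbol of their own in all. They had been picked from earlier readings of the same KO and WT difference, so that difference is described here and carries no test. The series holds 17 arrays of the mouse MOE430 2.0 platform (Affymetrix). In the KO mice, floxed Foxo1, Foxo3 and Foxo4 alleles were deleted by an hGFAP-driven Cre, which acts in progenitors that give rise to neurons and to glia. WT mice are named by genotype alone, the study's mice were of mixed FVB/B6 background, and age and sex are not given for these samples. The labels name the tissue only as brain, and the study's methods describe laser capture of the dentate gyrus. The main comparison used 8 KO and 7 WT arrays. An array from KO 433 and one from WT 437 carry the further mark CA13 in their labels, whose meaning is not given, and were kept out of the groups. The labels end in _1623 or _1586 and a letter, which splits the 15 arrays into series of 11 (6 KO and 5 WT) and 4 (2 KO and 2 WT). Nothing in the labels says whether the samples come from separate mice, so the spread reported may be technical in part.

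Values are linear probe set signals as deposited, placed on a log2(signal + 32) scale and quantile normalised over the arrays compared, so a level near 5 is the floor and a difference of 1 is a doubling for bright genes. On this scale levels are compared between arrays for one probe set and not between probe sets. Foxo1, the targeted gene with the clearest probe set, averaged 8.11 ± 0.77 in KO and 13.19 ± 0.50 in WT arrays (SD), and no array overlapped with the other group. Foxo3 was 10.33 in KO and 10.79 in WT, and Foxo4, dim, was 6.52 in KO and 6.09 in WT; where their probes lie relative to the deleted exons is not known here. The library labelled KO 433 stood apart: its mean over 10 granule neuron markers was 8.43, against 11.36 to 11.56 in the other KO and 11.32 to 11.68 in the WT arrays, and its mean over 12 CA pyramidal neuron markers was 10.30, against 7.58 to 8.40 in the other KO and 7.66 to 8.40 in the WT arrays. Results below are given with and without it where it moved them. In captured tissue a different number of oligodendrocytes and a different amount of RNA per oligodendrocyte cannot be told apart.

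Myelin is a stack of oligodendrocyte membrane wound around axons, held compact by basic proteins and sealed by tight junctions, and its proteins are made mainly by mature oligodendrocytes. Cryab encodes αB-crystallin (HSPB5), a small heat shock protein that binds unfolding proteins. In the brain it is made by oligodendrocytes and by astrocytes, and it accumulates in stressed glia and around protein inclusions. A Cryab level in captured tissue can therefore move with the amount of oligodendrocyte material as well as with the chaperone's own control, which is why each array's Cryab level was read against its myelin level.

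Upstream sequences are shown for Mal and Mobp, which with Cnp ran closest to Cryab over the arrays, and for Mog and Mag, which ran less closely with it. Each is the 250 bases before the annotated start in RefSeq, build GRCm38.p6, written 5′ to 3′ on the gene's strand; capitals mark matches to CTGGCAC or CTGGTAC, the motif of the myelin regulator MYRF, and to ACAAAG, the core recognised by SOX factors such as SOX10, on either strand (GTGCCAG or GTACCAG and, for SOX, CTTTGT).
Mal, chr2:127656696-127656945, minus strand: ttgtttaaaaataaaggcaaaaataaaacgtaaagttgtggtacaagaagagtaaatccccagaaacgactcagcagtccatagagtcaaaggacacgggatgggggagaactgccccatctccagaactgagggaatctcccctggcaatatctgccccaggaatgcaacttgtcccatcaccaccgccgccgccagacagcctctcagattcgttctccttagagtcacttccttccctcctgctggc
Mobp, chr9:120149492-120149741, plus strand: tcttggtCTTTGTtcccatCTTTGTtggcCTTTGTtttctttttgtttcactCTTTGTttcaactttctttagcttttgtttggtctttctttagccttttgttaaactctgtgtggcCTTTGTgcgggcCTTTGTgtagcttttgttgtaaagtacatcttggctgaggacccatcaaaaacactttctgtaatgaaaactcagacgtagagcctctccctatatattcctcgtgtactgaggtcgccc
Mog, chr17:37023399-37023648, minus strand: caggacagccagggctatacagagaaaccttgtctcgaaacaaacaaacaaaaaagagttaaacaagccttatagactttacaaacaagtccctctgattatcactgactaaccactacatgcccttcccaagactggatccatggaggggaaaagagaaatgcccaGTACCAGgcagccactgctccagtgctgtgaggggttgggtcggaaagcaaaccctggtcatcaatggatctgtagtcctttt
Mag, chr7:30914923-30915172, minus strand: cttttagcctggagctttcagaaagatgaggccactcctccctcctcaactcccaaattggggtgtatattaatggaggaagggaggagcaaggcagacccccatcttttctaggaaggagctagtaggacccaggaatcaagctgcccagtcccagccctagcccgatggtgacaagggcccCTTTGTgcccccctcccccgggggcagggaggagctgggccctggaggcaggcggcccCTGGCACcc
Of the 9 genes, 7 had an entry in the promoter table. Cryab and Mbp had none, so their upstream sequences were not searched. Of those 7, 3 held a MYRF motif (Cnp, Mag and Mog) and 3 a SOX core (Cnp, Mag and Mobp). Mag has 3 annotated starts; the printed window is the one before the outermost, an overlapping window holds the same matches, and the window of the remaining start holds neither motif. Over all 32851 upstream windows of that length, 5.93% held the MYRF motif and 16.5% the SOX core. Mobp was unusual in holding 6 SOX cores, and it was the 1 window of all 32851 with 6 or more. The FOXO element GTAAACA (3.17% of all windows), the heat shock element TTCNNGAA or GAANNTTC (12.8%) and the TATA box TATAAA (12.4%) were in none of the windows of these 7 genes. The printed Mal window, like those of Cldn11 and Ugt8a, held no match to any of the 5 patterns. A match is a description of letters and not of a bound site.

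Cryab was measured by 3 probe sets, of which 1434369_a_at was bright and the others were close to the floor. The bright probe set read 12.74, 11.75, 11.68, 11.12, 11.32, 11.28, 11.89 and 12.04 in KO 212, 903, 384, 386, 391, 390, MS15 and 433, with a median of 11.71. The WT values were 11.07 (206), 11.27 (41), 10.87 (437), 10.68 (385), 11.38 (393), 11.98 (392) and 10.88 (MS17), with a median of 11.07. The groups overlapped: 2 KO arrays lay above the highest WT array, WT 392, and 4 WT arrays lay below the lowest KO array, while all 8 KO arrays were above the WT median. The means were 11.73 ± 0.52 in KO and 11.16 ± 0.44 in WT (SD, n = 8 and 7), a difference of 0.57 on the log2 scale (SE 0.23, 95% interval 0.09 to 1.04), or 1.48-fold. In linear signal, the median was 3377 in KO and 2159 in WT arrays. The dim probe sets 1435837_at (6.31 ± 0.34 in KO and 6.28 ± 0.53 in WT) and 1416455_a_at (5.77 ± 0.57 in KO and 5.48 ± 0.37 in WT) differed by 0.03 (SE 0.22) and 0.29 (SE 0.23), less than their own spread. 1416455_a_at ran with the bright probe set over the arrays (r = 0.67), whereas 1435837_at did not (r = -0.01). None of the 26 member probe sets passed limma's test at an adjusted p under 0.05, where 0.0133% of all 45037 did. At an unadjusted p under 0.05, 9 of the 26 were higher in KO and 0 lower, beside 1.54% higher and 1.68% lower over all probe sets, a count to which nothing is added because the same difference chose the members.

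**Figure D1:**
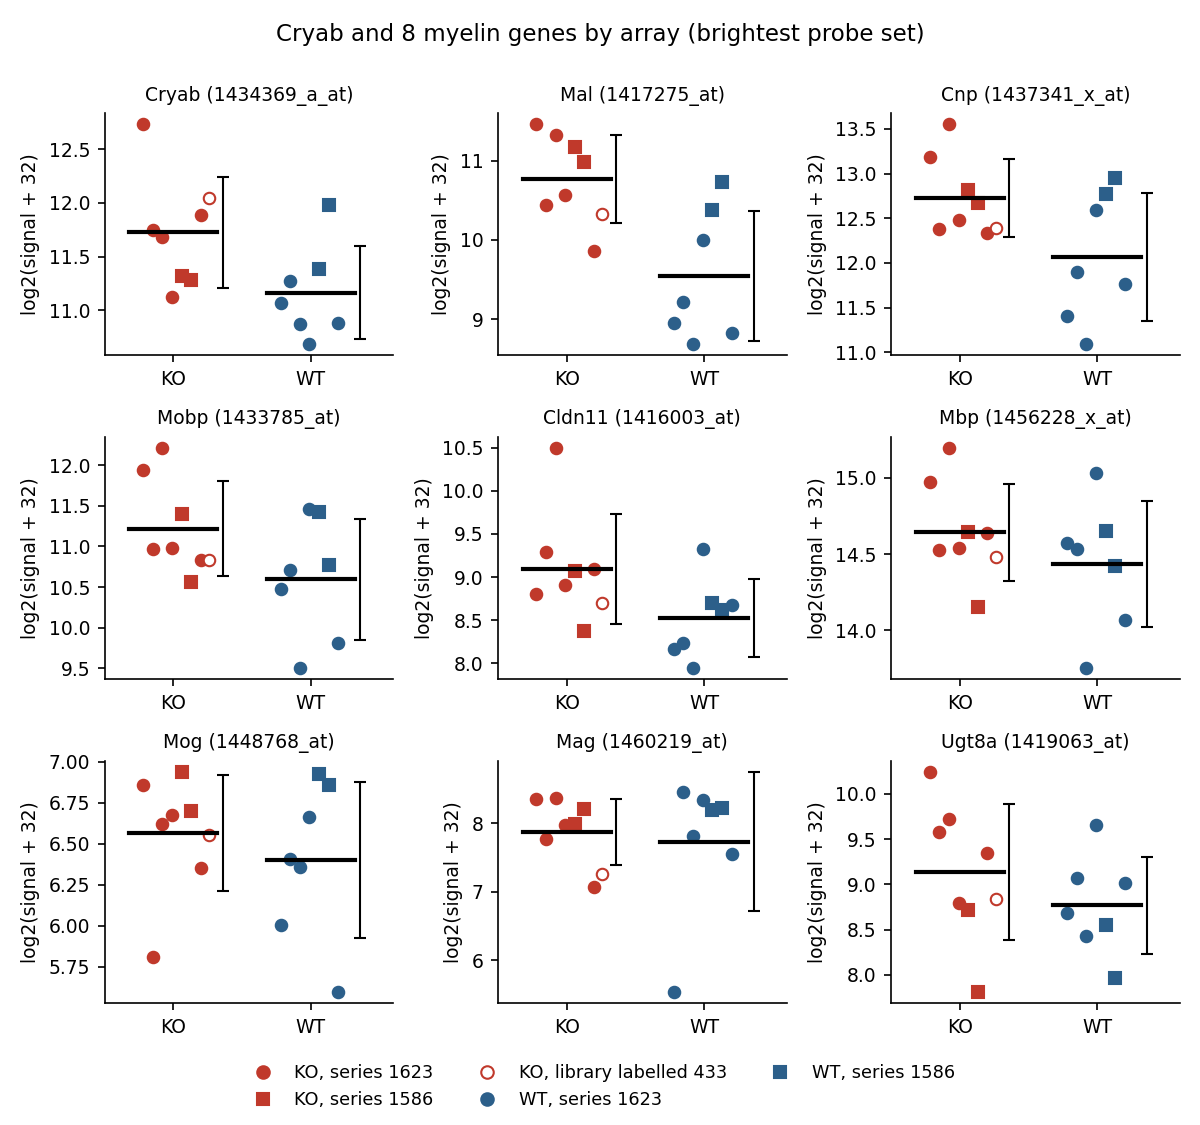
Level of the brightest probe set of each of the 9 genes in every unmarked array, log2(signal + 32), KO left and WT right. Circles are array series _1623, squares series _1586, the open circle is the library labelled KO 433, black lines are group means and bars are ± 1 SD. All 8 KO arrays lie above the WT median for Cryab and for Mal, and the groups overlap in every panel.

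Mal, a proteolipid that carries myelin cargo through oligodendrocyte membranes, had the largest difference among the 9 brightest probe sets. It read 9.86 to 11.46 in KO arrays (median 10.77) and 8.68 to 10.73 in WT arrays (median 9.21). All 8 KO arrays were above the WT median, and the WT values that reached into the KO range were those of the series _1586 arrays (10.38 in 393 and 10.73 in 392) and of 385 (9.997). The difference was 1.22 (SE 0.32, 95% interval 0.56 to 1.89), and the second probe set of Mal, 1432558_a_at, gave 0.79 (SE 0.22). Cnp, the cyclic nucleotide phosphodiesterase that keeps cytoplasmic channels in myelin open, read 12.33 to 13.55 in KO arrays (median 12.58) and 11.09 to 12.95 in WT arrays (median 11.90), a difference of 0.66 (SE 0.27). Its other probe sets, dimmer by several log2 units, gave 0.25 (SE 0.23) and 0.19 (SE 0.33). The bright one carries the suffix _x_at, by which the manufacturer marks probes that can match further transcripts. The brightest Mbp probe set, 1456228_x_at, carries it too.

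The structural genes of compact myelin were ordered differently. Mobp, a small basic protein of compact myelin, read 10.56 to 12.21 in KO arrays (median 10.97) and 9.50 to 11.46 in WT arrays (median 10.71), with a difference of 0.62 (SE 0.30), and of its 5 probe sets 4 were higher and 1, at the floor, was lower in KO. Cldn11, the tight junction protein of myelin, read 8.38 to 10.50 in KO arrays (median 8.99) and 7.95 to 9.33 in WT arrays (median 8.61), with a difference of 0.57 (SE 0.27), or 0.37 without KO 384. KO 384 was highest for Cnp, Mobp, Cldn11 and Mbp alike. Mbp, myelin basic protein, was read by 8 probe sets, 6 higher and 2 lower in KO; its brightest, 1456228_x_at, averaged 14.64 ± 0.32 in KO and 14.43 ± 0.41 in WT (SD), a difference of 0.21 (SE 0.18) that was 0.10 without WT 437 and 0.13 without KO 384. The 8 Mbp probe sets ranged from -0.33 (SE 0.26, 1425264_s_at) to 0.71 (SE 0.28, 1451961_a_at, a dim one), so that they disagreed on the direction for a single gene. Those lower in KO, 1425264_s_at and 1425263_a_at, did not run with the brightest over the arrays (r = -0.05 and -0.02). The others did (r = 0.50 to 0.97).

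The remaining members belong to the outer and inner myelin surface and to its lipids. Mog, the glycoprotein of the outermost lamella, averaged 6.56 ± 0.35 in KO and 6.40 ± 0.48 in WT arrays, a difference of 0.16 (SE 0.22) that was 0.03 without WT MS17 and 0.27 without KO 903. Mag, the glycoprotein facing the axon, averaged 7.87 ± 0.49 in KO and 7.73 ± 1.02 in WT arrays, a difference of 0.14 (SE 0.36) that turned to -0.22 without WT 206, which read 5.53 where the other WT arrays read 7.55 to 8.46. Ugt8a, which makes galactosylceramide, the main glycolipid of myelin, averaged 9.13 ± 0.75 in KO and 8.77 ± 0.54 in WT arrays, a difference of 0.36 (SE 0.31) that was 0.21 without KO 212, 0.23 without WT 392 and 0.55 without KO 390. The KO mean of the brightest probe set was thus above the WT mean for all 8 myelin genes, with sizes from 0.14 to 1.22. Over all genes it was above for 9531 of 18193.

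**Figure D2:**
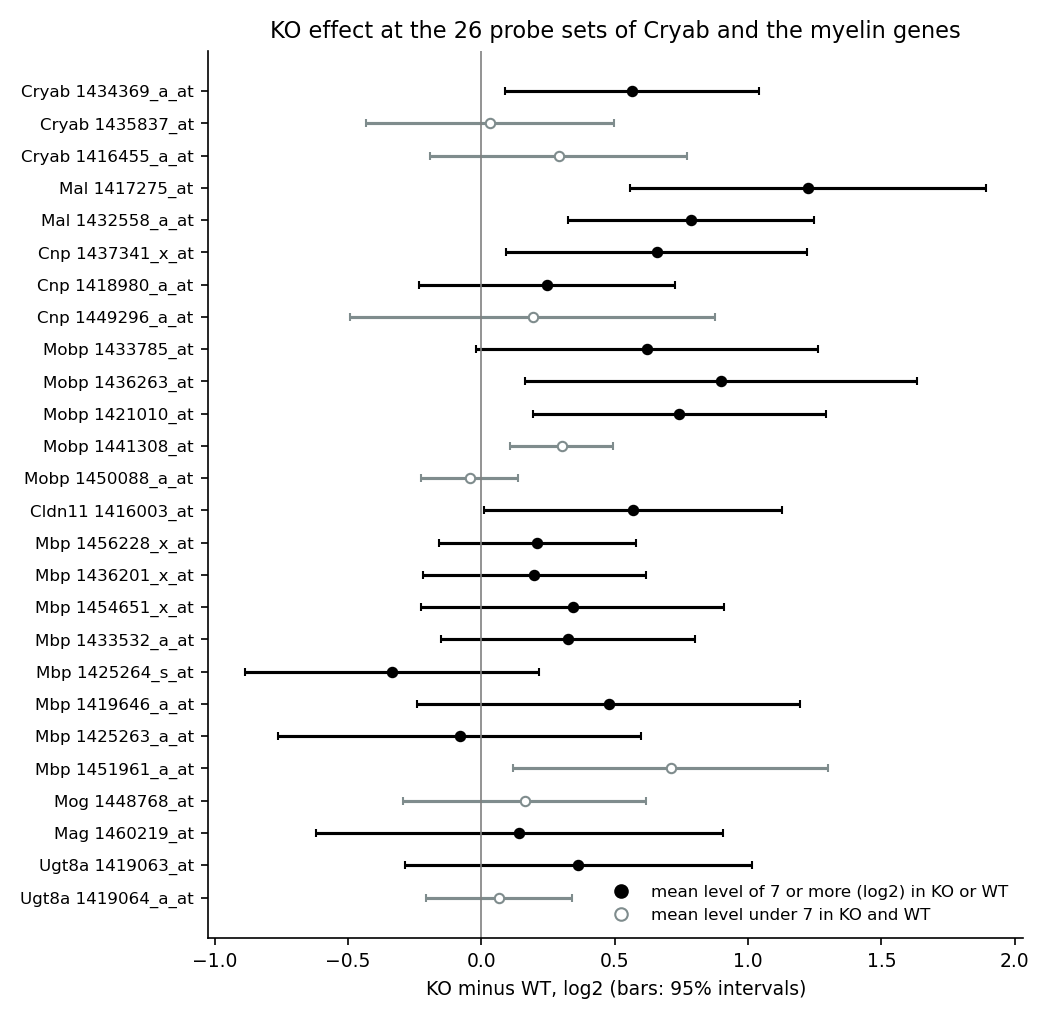
KO minus WT difference on the log2 scale at each of the 26 probe sets, with 95% intervals from limma (8 KO and 7 WT arrays). Filled points have a mean level of 7 or more in KO or WT, open grey points lie under 7 in both; 23 differences are above 0 and 3 below.

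The myelin genes ran together over the arrays, though not equally. Among the 28 pairs of myelin members, r ranged from -0.15 (Mog with Ugt8a) to 0.93 (Mobp with Mbp, and Mal with Cnp), with a median of 0.57, and 27 of 28 were positive. The mean of the 8 brightest probe sets was taken as an array's myelin level. It was 10.25 ± 0.39 in KO arrays (9.92 to 10.94) and 9.76 ± 0.48 in WT arrays (9.20 to 10.38), a difference of 0.49 (95% interval 0.01 to 0.98). All 8 KO arrays lay above the WT median. When each myelin gene was set against the mean of the other 7, Mal kept a difference of 0.74 (SE 0.25, 95% interval 0.21 to 1.28). The other myelin genes came to values between -0.35 for Mag and 0.20 for Cldn11, each with an interval that included 0. The same KO and WT difference had chosen the members, so these intervals are a description and test nothing.

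Cryab followed the myelin level over the 15 arrays with r = 0.50 and Spearman's rho of 0.36, and with r = 0.54 without the library labelled KO 433. The relation was thinner inside the groups. Within the 8 KO arrays r was 0.34 and rho -0.05, and without the pair of arrays farthest from the median (384 and 212) r was -0.51. Within the 7 WT arrays r was 0.29, and 0.09 without 437 and 206. In series _1623 it was 0.54, and 0.27 without 384 and 212. After the mean of each genotype was taken off, r was 0.31, or 0.51 without WT 385. After the mean of each genotype in each array series was taken off, it was 0.09, or 0.29 without WT 385. A single array moved it both ways: r was 0.35 without KO 212, the highest Cryab reading, and 0.65 without WT 385, which had the lowest Cryab reading and the highest WT myelin level, 10.38. Points share their array, its RNA quality and its cell makeup, and the relation is given as a description.

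**Figure D3:**
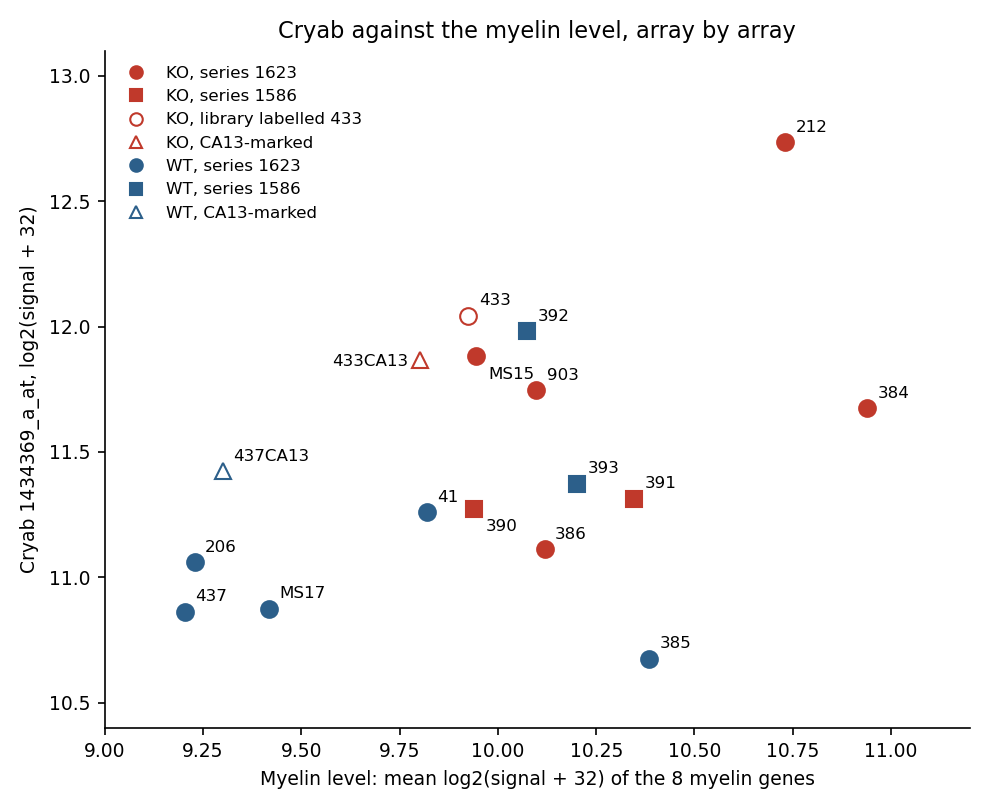
Cryab (1434369_a_at) against the myelin level, the mean of the 8 myelin genes, both as log2(signal + 32) and here normalised over all 17 arrays; each point is an array with the mark in its label. Red is KO and blue WT, circles are series _1623, squares series _1586, triangles the CA13-marked arrays, and the open circle is the library labelled KO 433. WT 385 has the lowest Cryab level at a myelin level of 10.39, and KO 212 is high on both axes.

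Single myelin genes differed in how far they ran with Cryab. Mal (r = 0.60), Cnp (0.56) and Mobp (0.48) were closest, followed by Mbp (0.36), Ugt8a (0.33), Mog (0.30), Cldn11 (0.22) and Mag (0.12). Over all genes the median r with Cryab was 0.03, and 5% of genes lay below -0.41 and 5% above 0.45, and Mal, Cnp and Mobp lay above that upper value. The members were picked for a KO difference like that of Cryab, which raises r over pooled KO and WT arrays, so no position among all genes is read from this; within KO arrays r was 0.24 for Cnp and within WT arrays 0.56. The second Mal probe set reached 0.72. Ugt8a ran with Cryab in KO arrays (r = 0.74) and against it in WT arrays (r = -0.76), and Mal had r = 0.12 in KO and 0.66 in WT arrays; these within-group values rest on 8 and 7 arrays and their differences were not tested.

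At equal myelin level, with the mean of the 8 myelin genes as a term in the fit, the KO difference of Cryab was 0.40 (SE 0.26, 95% interval -0.16 to 0.95), against 0.57 without that term. Cryab went up by 0.34 (SE 0.28) per log2 unit of myelin level in that fit. None of the 26 probe sets passed at an adjusted p under 0.05 there, where 0.00666% of all probe sets did. The value was 0.30 (95% interval -0.28 to 0.87) without the library labelled KO 433, 0.13 (-0.45 to 0.70) without WT 385 and 0.57 (0.04 to 1.11) without WT 392. With the ratio of the 3′ to the 5′ Gapdh control probe sets as a term, a measure of RNA quality, it was 0.28. The log2 of that ratio was 4.89 to 6.10 in KO and 5.06 to 5.97 in WT arrays. The myelin genes themselves are part of the KO difference, so this term takes off whatever Cryab shares with them, and an effect of genotype on both cannot be told apart from a shared effect of tissue makeup.

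**Figure D4:**
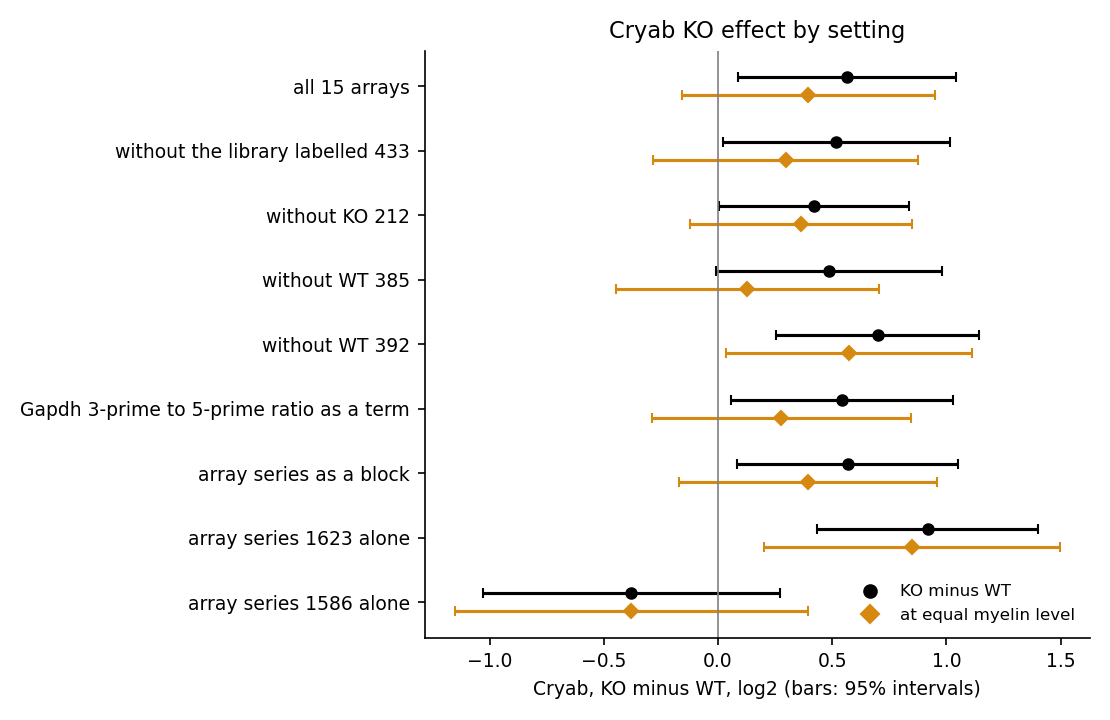
KO minus WT difference of Cryab (1434369_a_at) on the log2 scale with 95% intervals, without (black circles) and with (orange diamonds) the myelin level as a term, under 9 choices of arrays or terms. The value at equal myelin level is 0.40 for all 15 arrays, 0.85 in series _1623 alone and -0.38 in series _1586 alone.

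The array series gave opposite values for Cryab. In series _1623 it averaged 11.87 ± 0.53 in the 6 KO and 10.95 ± 0.22 in the 5 WT arrays, and 5 of the 6 KO arrays were above all 5 WT arrays. A fit of those 11 arrays alone gave 0.92 (95% interval 0.43 to 1.401), and 0.85 (0.20 to 1.495) at equal myelin level. In series _1586 the KO arrays 391 and 390 read 11.32 and 11.28, and the WT arrays 393 and 392 read 11.38 and 11.98. A fit of those 4 arrays alone gave -0.38 (95% interval -1.03 to 0.27), and -0.38 (-1.15 to 0.39) at equal myelin level. The myelin level differed by 0.0026 between KO and WT there, so the term could hardly change the Cryab difference. That difference was -0.08 without WT 392 and -0.68 without WT 393, so its size rested on single arrays. The difference between the series was -1.30 (SE 0.42, 95% interval -2.19 to -0.40) and did not pass limma's test over all probe sets (adjusted p = 0.975), and 0% of all 45037 probe sets passed it. At an unadjusted p under 0.05 it passed for 3 of the 26 member probe sets, beside 4.84% of all probe sets. It was -1.26 without the library labelled KO 433.

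The myelin level was higher in KO in series _1623 and level in series _1586; the difference between the series was not tested for it. In series _1623 it was 10.29 ± 0.43 in KO and 9.61 ± 0.50 in WT arrays, and in series _1586 10.34 and 9.93 in the KO arrays and 10.20 and 10.07 in the WT arrays. By its brightest probe set, Mal differed in both series, by 1.53 in _1623 (10.66 ± 0.62 in KO and 9.13 ± 0.52 in WT) and by 0.52 in _1586, where the KO arrays read 11.17 and 10.98 and the WT arrays 10.38 and 10.73. Mal and Cldn11 (0.07) had their KO mean above the WT mean in series _1586, Ugt8a was level (0.01), and Cnp, Mobp, Mbp, Mog and Mag were lower in KO by 0.07 to 0.14. By the brightest probe sets, the KO and WT arrays of that series overlapped for every myelin gene but Mal, whose KO arrays both lay above both WT arrays. The second Mal probe set, 1432558_a_at, differed by 1.06 in series _1623 and by 0.04 in series _1586, where its KO arrays (8.52 and 8.60) lay between the WT arrays (8.29 and 8.75).

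The CA13-marked arrays were set beside the unmarked arrays of the same numbers, all normalised over 17 arrays. KO 433CA13 read 11.87 for Cryab and 9.80 for the myelin level, and KO 433 read 12.04 and 9.93. WT 437CA13 read 11.42 for Cryab and 9.30 for the myelin level, and WT 437 read 10.86 and 9.20. The granule marker mean was 11.52 in KO 433CA13 and 8.44 in KO 433, but 8.32 in WT 437CA13 and 11.69 in WT 437. The mark thus went with a low granule mean in 437 and with a high one in 433, and whether the labels of KO 433 and KO 433CA13 were exchanged was not tested. In both numbers the array with the lower granule mean had the higher Cryab level, by less than the spread between arrays of a group in 433. Putting KO 433CA13 in place of KO 433 gave a Cryab difference of 0.54, and 0.38 at equal myelin level. Over the 14 arrays without KO 433, the granule marker mean and Cryab ran against each other (r = -0.52); the part of neuron type in the Cryab values was not tested.

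Oligodendrocyte genes outside the members were read from a list of 24, of which 20 were measured. Their mean level was 8.23 ± 0.19 in KO and 8.11 ± 0.13 in WT arrays, a smaller gap than that of the 8 members. Of the 20, 13 were higher in KO, beside 9531 of 18193 over all genes, and none passed at an adjusted p under 0.05. The median difference was 0.16 (0.09 without KO 433), beside 0.01 over all genes. Those with the smallest p were Myrf, the transcription factor that switches on myelin genes (8.36 ± 0.51 in KO and 7.60 ± 0.67 in WT, difference 0.75, SE 0.28), and Tmem125 (7.18 ± 0.36 in KO and 6.68 ± 0.20 in WT, difference 0.50, SE 0.18). Myrf had r = 0.03 with the myelin level, while Opalin, a sialylated protein of mature oligodendrocytes, had 0.68 and differed by 0.42 (SE 0.26). The mean of the 20 was set against Cryab as a description. No test of it is reported, because Cryab was chosen for its own KO difference and the list with earlier results known. Over 15 arrays r was 0.58 and rho 0.48. Without 212 and 384, the arrays farthest from the median, r was 0.29, so the relation rested on those KO arrays; it was 0.55 without KO 433, and 0.08 without all of these. It was 0.64 in KO and 0.15 in WT arrays, and 0.65 in series _1623. After the mean of each genotype was taken off, r was 0.48, or 0.61 without WT 385. After that of each genotype in each array series was taken off, it was 0.29, or 0.42 without WT 385. With this mean in place of the myelin level, the KO difference of Cryab was 0.39 (95% interval -0.09 to 0.87).

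Of 5 measured lineage factors 1 was higher in KO, with a median difference of -0.16; that one, Olig1, a helix-loop-helix factor of the lineage, had r = 0.83 with the myelin level and 0.57 with Cryab. Of 6 precursor genes 5 were higher in KO, beside 9531 of 18193 over all genes, and the median was 0.21. Among the 5 was Pdgfra, the growth factor receptor of precursors (7.71 in KO and 7.47 in WT, difference 0.24, SE 0.27). None of these 11 passed at an adjusted p under 0.05. Cholesterol synthesis, on which myelin membrane depends, had a median difference of 0.06 over 10 measured genes.

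Astrocytes also make Cryab, and their markers were read in the same way. Over 12 astrocyte genes, of which 4 were higher in KO, the median difference was -0.06 and the median r with Cryab was -0.05. Their mean level was 9.72 ± 0.22 in KO and 9.72 ± 0.21 in WT arrays. Gfap, the astrocyte intermediate filament, was 12.09 ± 0.40 in KO and 11.77 ± 0.74 in WT arrays (difference 0.32, SE 0.27, and r = 0.43 with Cryab). S100b, with the smallest p of the list, differed by 0.42 (SE 0.21) and had r = 0.63 with Cryab. Slc1a3 (-0.38, SE 0.21, r = -0.31) and Gjb6 (-0.33, SE 0.17, r = -0.35) went the other way. Microglial genes had a median r with Cryab of 0.23 over 11 genes and a median difference of 0.03. Granule neuron genes were all lower in KO over the 15 arrays, with a median of -0.40 that shrank to -0.09 without KO 433. Without KO 433, Prox1 (0.31) and Tdo2 (0.08) were higher in KO and the other granule genes lower. CA pyramidal genes had a median of 0.38 that was -0.07 without KO 433. The part of these cell types in the Cryab difference was not tested.

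The relatives of Cryab had differences near 0, on a scale that compresses those of dim genes. Cryaa was close to the floor (5.36 in KO and 5.44 in WT), and Hspb2 (6.43 and 6.51) and Hspb7 (6.53 and 6.34) were dim. Over 7 small heat shock protein genes (Hspb1, Hspb2, Hspb3, Hspb6, Hspb7, Hspb8 and Cryaa) the median difference was 0.00, with values from -0.15 for Hspb1 (7.61 ± 0.30 in KO and 7.76 ± 0.23 in WT) to 0.19 for Hspb7, and the median r with Cryab was 0.06. Hspb2, the neighbour of Cryab on its chromosome, differed by -0.08 (SE 0.28) and had r = 0.23 with Cryab. Among 6 genes of the heat shock response, Hspa1a, an inducible HSP70, had the smallest p (10.09 ± 0.57 in KO and 9.41 ± 0.34 in WT, difference 0.68, SE 0.23, 0.49 without KO 433), and Hspa1b differed by 0.36 (SE 0.32). Dnajb1 (0.10), Hsp90aa1 (-0.02), Hsph1 (-0.06) and Bag3 (-0.33) lay near 0 or below, and none of the 13 passed at an adjusted p under 0.05.

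**Figure D5:**
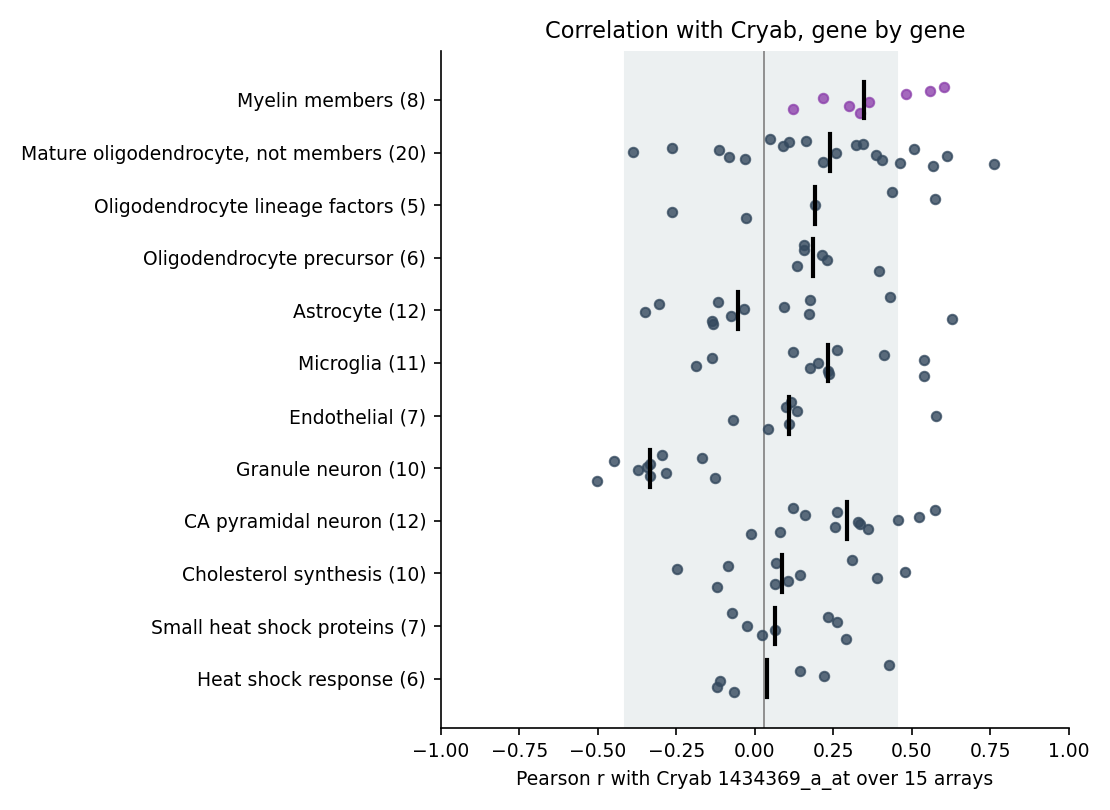
Pearson r with Cryab (1434369_a_at) over the 15 unmarked arrays, a point for each gene, by list, with the list's median as a black bar and the number of genes in brackets. The grey band holds the genes between the 5th and the 95th percentile of all genes (-0.41 to 0.45) and the thin line is their median, 0.03. Mal, Cnp and Mobp lie to the right of the band, and all 10 granule neuron genes lie below 0. Without KO 433, Lct (0.23) and C1ql2 (0.14) were above 0, the other granule genes stayed below it, and the granule median was -0.19.

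The genes whose level was most like that of Cryab over the 15 arrays were Figla (r = 0.84), Slco6b1, Adam26a, Cox8b, Spatc1l, Tmem125 (0.76), Gprc5d, Tmem88b (0.76), Plekhf1 and Kcne1 (0.75). Most were dim: Figla averaged 6.17, near the floor, whereas Tmem88b (8.18) and Plekhf1 (8.11) were in the middle of all genes. Tmem125, itself on the oligodendrocyte list, was the single gene of these 10 that was on any list. Without KO 433 the 10 closest were Kcne1 (r = 0.84), Pbp2, Figla (0.83), Apba2, Eef2kmt, Xdh, Slc5a8, Cox8b, Ubald1 and Gprc5d. Figla, Cox8b, Gprc5d and Kcne1 were among the 10 both times. Of the members, by brightest probe sets, Mal was the closest over the 15 arrays (r = 0.60).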

How the data were processed

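Brain RNA of KO and WT mice was measured on Affymetrix mouse MOE430 2.0 arrays. The deposited values are probe set intensities on a linear scale; the labels' processing notes name MAS5, the study's methods name RMA followed by SAM, and each array's mean after trimming 2% at either end was 500, as MAS5 scaling gives. All 17 columns matched a sample and none was left unused. After dropping 64 control probe sets, intensities were turned into log2(intensity + 32) and the arrays of a fit were quantile normalised. KO minus WT was fitted with limma 3.58.1 (R 4.3.3, eBayes with a trend) over 45037 probe sets with Benjamini-Hochberg adjustment, once plain and once with the myelin level as a term; series _1586 against _1623 was an interaction term. Scripts were tested on simulated data. Correlations are given as descriptions, and no test of them is reported. A gene with several probe sets is represented by its brightest. Members, gene lists and motifs were chosen with earlier results of these data known. Named are all members, the 10 genes closest to Cryab with and without KO 433, up to 4 genes of each list by smallest p or brightness, all small heat shock and heat shock response genes, the neighbours of Cryab and the Foxo genes. Alternatives were SAM, other pseudocounts, no quantile normalisation, a filter on dim probe sets, RNA quality or array series as terms, array weights, single series and leaving out each array. Arrays have no read depth, so their number limits the precision.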

Additional observations from a re-analysis of the deposited data

Results flagged for a closer look

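The 62 groups of KO or WT values covered the 26 member probe sets and 5 array means. In them, 9 values, some from the same array, stood apart by the gap to the nearest array over the group's range. Chance alone gives about 1 in 20 independent groups, and these groups share their arrays. Among the KO arrays, those that stood apart were 384 for Cldn11 (10.50, nearest 9.29) and for the dim Ugt8a probe set 1419064_a_at (6.23, nearest 5.64), MS15 for Mbp 1425263_a_at (9.38, nearest 8.09), 433 for Mbp 1425264_s_at (7.88, nearest 9.14) and 903 for Mobp 1450088_a_at at the floor (5.41, nearest 5.25). KO 433 also stood apart in its granule neuron mean (8.43, nearest 11.36) and in its CA pyramidal mean (10.30, nearest 8.40). Among the WT arrays, 206 stood apart for Mag (5.53, nearest 7.55) and 437 for Mal 1432558_a_at (7.37, nearest 8.16). The brightest Cryab probe set gave no such array in either group.

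For 3 of the 26 probe sets the KO difference in series _1586 was apart from that in series _1623 at an unadjusted p under 0.05 for the interaction, a threshold that 4.84% of all 45037 probe sets met. The series difference was -1.30 for Cryab 1434369_a_at (unadjusted p = 0.0074), -1.02 for Mal 1432558_a_at and -1.09 for Cnp 1437341_x_at, and limma passed none of them after adjustment over all probe sets. Series _1586 holds 2 arrays of each genotype, and its WT array 392 has the highest WT reading of Cryab.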

How the results depend on the processing

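Of the 356 values recomputed under an alternative, 343 were counted as kept. No member difference passed the adjusted p threshold in the main fits, so for these the tally mainly follows direction. The correlation and the myelin level have no adjusted p, so no threshold applied to them. A correlation of 0.088, with the genotype and array series means taken off, was counted as kept beside 0.50. The tally is therefore not a measure of how stable the sizes were. No member probe set passed under any of the 27 alternatives run for the number of passing members, SAM included. In a fit of array series _1586 by itself Cryab was -0.38, and -0.38 at equal myelin level, the myelin level differed by 0.0026, and Cnp (-0.12), Mobp (-0.12), Mbp (-0.15), Mog (-0.076) and Mag (-0.12) were lower in KO. With the mean of the other 7 myelin genes as a term, a choice added after seeing the data, Mobp (-0.069), Mbp (-0.12), Mog (-0.084) and Mag (-0.35) turned direction; the cause was not tested. Leaving out each array in turn gave 0.42 (without KO 212) to 0.70 (without WT 392) for Cryab, 0.13 (without WT 385) to 0.57 (without WT 392) for Cryab at equal myelin level, 0.40 to 0.60 for the myelin level, 0.35 to 0.65 for the correlation of Cryab with it, and -0.22 (without WT 206) to 0.26 for Mag. Also added after seeing the data, leaving out KO 433 and KO 212 together gave 0.34 for Cryab and 0.25 at equal myelin level, and a term for the granule marker mean gave 0.49 and 0.29; the cause was not tested. The added 32 compresses values near the floor, which understates differences of dim probe sets. No paired analysis was possible because the labels give KO and WT samples no shared replicate numbers.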
